A study of Mus musculus with 14 samples.

Results

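Coding indels are small insertions or deletions inside the protein-coding part of a gene. They were taken here from the columns of the deposited exome tables that count frameshift variants and the 4 classes of in-frame insertion or deletion. For each protein-coding gene the highest count over its transcripts was used, and a gene that a tumour's table did not list was set to 0. Of 21312 protein-coding genes listed in at least 1 tumour, 5939 (27.9%) carried a coding indel in at least 1 of 12 mouse mammary tumours. Frameshift variants were found in 5243 genes and in-frame indels in 2095.

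A frameshift changes the number of bases by other than a multiple of 3, so every codon after it is misread and a premature stop usually follows. The message is then often destroyed by nonsense-mediated decay. An in-frame indel adds or removes whole codons and leaves the rest of the protein as it was. snpEff, the annotation program, calls an in-frame indel conservative when it falls between codons and disruptive when it also changes a neighbouring codon. Runs of a repeated base or codon are known as the places where polymerases slip and indels arise, and mismatch repair normally removes them. Indels are also harder to call from short reads than base substitutions.

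All tumours grew from Balb/c p53null mammary fragments and were collected at a maximum diameter of 2 cm. In the gel experiment the fragment came from a syngeneic donor aged 8 to 10 weeks. It was placed in a cleared mammary fat pad of wild-type females that had received a hydrogel of collagen 1 and basement membrane extract (20%) at 3 to 4 weeks of age. The gel was left soft for tumours A1, A2 and A3, or stiffened for A7, A8 and A9, where 500 mM L-ribose had crosslinked the collagen. In the host experiment the same kind of fragment went into the fat pad of LysM-Cre animals, which express Cre in myeloid cells. Hosts of B1, B2 and B3 were GPX4 wild-type (WT), and hosts of B4, B5 and B6 were GPX4 knockout (KO); GPX4 is the peroxidase that removes lipid peroxides. The age of these hosts and the number of donor mice are not given in the labels. The knockout lies in host cells. Gpx4, Lyz2, the locus behind LysM-Cre, and Trp53 each had 0 coding indels in every tumour of all 4 groups, so these counts do not check the genotype labels. The study is about tissue tension, oxidative stress and damage to DNA. Tumour DNA also holds DNA of host cells, and the tables give no allele fraction, position, base change or depth. Wild-type Balb/c tails were sequenced too and were not analysed here. Inherited differences from the reference, false calls and changes acquired in the tumour therefore cannot be told apart in these counts, and the indel sequences themselves cannot be shown.

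Every tumour carried between 1621 and 4174 coding indels, and about 4 in 5 of them were frameshifts. In soft-gel tumours the frameshift count was 1895, 2323 and 2071 in A1, A2 and A3, and in stiff-gel tumours 2128, 2029 and 1317 in A7, A8 and A9. In WT hosts it was 3382, 2862 and 2416 in B1, B2 and B3, and in KO hosts 2158, 1380 and 2893 in B4, B5 and B6. A9 and B5 were the lowest of all, and B1, B6 and B2 the highest. In-frame indels numbered 446, 524 and 500 in soft gels, 474, 434 and 304 in stiff gels, 792, 652 and 597 in WT hosts and 495, 309 and 731 in KO hosts. The in-frame share of coding indels moved little, from 17.6% in A8 to 20.2% in B6. Deletions made up 51.6% (A8) to 57.8% (B1) of in-frame indels, and the conservative classes 47.0% (A7) to 53.3% (B4).

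**Figure D1:**
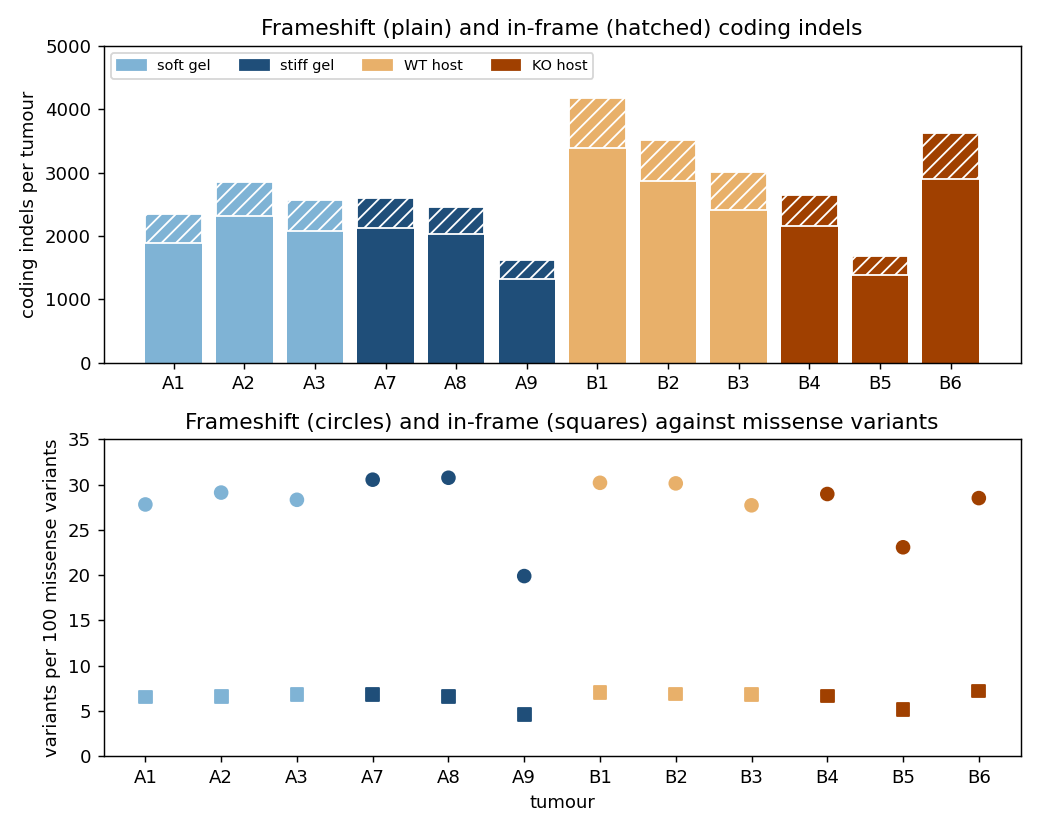
Top, coding indels of each tumour, with frameshift variants as the plain and in-frame indels as the hatched part of each bar, coloured by group. Bottom, frameshift variants (circles) and in-frame indels (squares) per 100 missense variants of the same tumour. A9 and B5 have the shortest bars (1621 and 1689) and the lowest circles (19.9 and 23.1).

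Missense variants, which change a single amino acid, gave a scale that is free of indel calling. A9 had 6616 missense variants, more than A8 with 6594, but 1317 frameshifts against 2029. B5 had the fewest missense variants, 5977. Per 100 missense variants, in-frame indels numbered 6.55 to 7.21 in 10 tumours, 4.59 in A9 and 5.17 in B5. Both classes of indel were thus low in these tumours relative to missense variants, while the in-frame share of indels, 18.8% in A9 and 18.3% in B5, lay inside the range of the others. The part that indel calling, read depth or the instrument plays in this was not tested, as the tables give none of them.

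Most genes with a coding indel had it in few tumours. In 1 tumour only there were 2360 genes (39.7%), in 2 to 11 tumours 3060 (51.5%) and in all 12 tumours 519 (8.74%). There were 1114 genes in exactly 2 tumours, 149 in 6, 82 in 10 and 119 in 11, so that the distribution rose again at 12. In-frame indels recurred less broadly as a description: 53.2% of genes with one had it in 1 tumour and 4.58% in all 12, against 42.0% and 8.39% of genes with a frameshift. Missense variants stood at 37.7% and 12.7%, over 10162 genes. Requiring at least 2 indels in a tumour left 933, 977 and 132 genes in the 3 classes. Leaving out A9 and B5 raised the number of genes hit in every remaining tumour to 618.

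**Figure D2:**
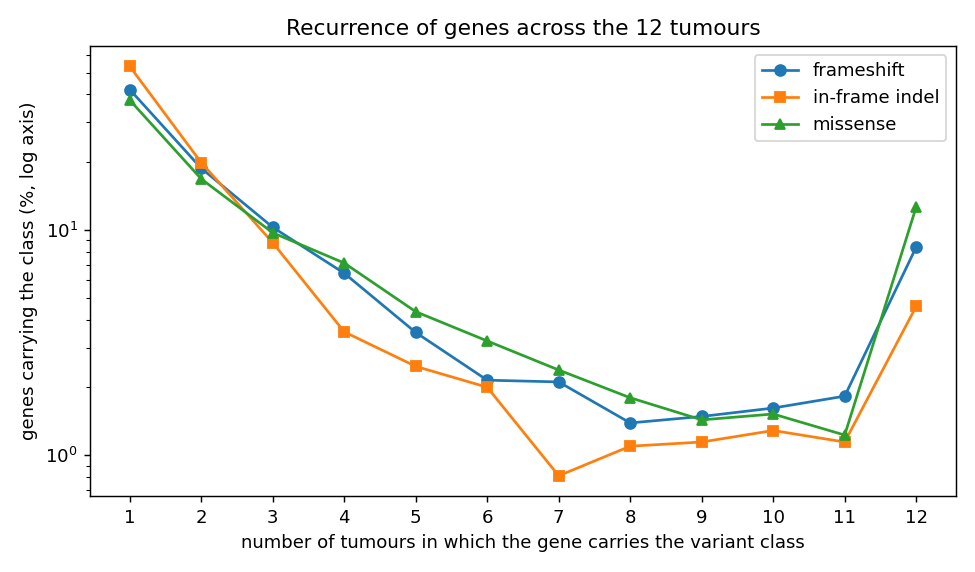
Percentage of genes carrying each variant class (logarithmic axis) by the number of tumours in which the gene carries it, from 1 to 12. All 3 classes fall towards the middle and rise again at 12 tumours, where missense stands at 12.7%, frameshift at 8.39% and in-frame indels at 4.58%.

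The 519 genes with an indel in all 12 tumours held a mean of 41.2% of a tumour's coding indels (30.6% to 55.5%). Of these genes, 440 carried a frameshift in every tumour and 96 an in-frame indel in every tumour, with 33 carrying both throughout. The count was identical in all 12 tumours for 128 genes, among them 109 with exactly 1 indel in each, and it spanned more than 5 for 21 genes. Where the count is the same in tumours of 2 experiments and 4 groups, it carries no difference between groups.

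Among the genes with the most frameshifts on average, Arhgap30, a GTPase-activating protein, carried 9, 12 and 14 frameshifts in soft gels, 13, 20 and 14 in stiff gels, 23, 21 and 14 in WT hosts and 13, 10 and 19 in KO hosts, and it also had the most missense variants of those named, a mean of 77.8. Stard9, a kinesin of the mitotic spindle, carried 16, 16, 13, 14, 16, 7, 13, 13, 15, 12, 6 and 15 from A1 to B6. In Stard9 the low values were again A9 and B5. Tnxb, which encodes tenascin-X of the extracellular matrix, ranged from 3 in B5 to 17 in B2. Ppip5k1, an inositol pyrophosphate kinase, ranged from 4 in B5 to 11 in A7. The groups overlapped in each of these genes.

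Some genes kept almost the same frameshift count throughout. Rpgrip1, a protein of the photoreceptor cilium, had 6 in 10 tumours, 9 in A8 and 7 in B1. The olfactory receptor Olfr609 had 6 in 11 tumours and 4 in B5. H3c3, a replication-dependent histone H3 gene, had 9, 7 and 8 in soft gels, 8, 9 and 1 in stiff gels, 9, 9 and 9 in WT hosts and 8, 1 and 8 in KO hosts. It was at 7 to 9 in 10 tumours and at 1 in A9 and B5 alone. H3 genes are nearly identical in sequence, as are olfactory receptors and the pair C4b and C4a, so reads may be assigned to the wrong copy and these counts are uncertain. C4b, a complement component, ranged from 2 in B5 to 11 in B1. Further genes of the top 15 were Zan, the sperm protein zonadhesin (2 to 10), Copa, a coatomer subunit of Golgi vesicles (4 to 9), Crybg2 (4 to 8), Pfdn2, a prefoldin subunit (3 to 6), Sfi1, a centrosomal protein (3 to 6), and Lct, which encodes lactase (3 to 7).

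In-frame indels in all 12 tumours were few per gene and steadier. Cnksr1, a scaffold of Ras signalling, carried 3 in every tumour. Abca13, an ABC transporter, carried 2 in every tumour, and so did Frmpd1 and Rusc2, neither of which had a frameshift in any tumour. Ppip5k1 led with a mean of 3.50, from 2 in A9 and B5 to 4, and Dnah10, an axonemal dynein heavy chain, followed Cnksr1 with a mean of 2.92. Tnxb varied most of the 15, with 3, 5 and 1 in soft gels, 4, 1 and 1 in stiff gels, 4, 5 and 2 in WT hosts and 1, 1 and 3 in KO hosts. Pcnx2, Copa, Kntc1 (a kinetochore protein), Arid1a (a chromatin remodelling subunit), Crybg2, Zan and Celsr2 (an adhesion cadherin) were also among the 15, with means from 1.58 to 2.42. In 24 genes an in-frame indel was present in all 12 tumours with no frameshift in any.

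**Figure D3:**
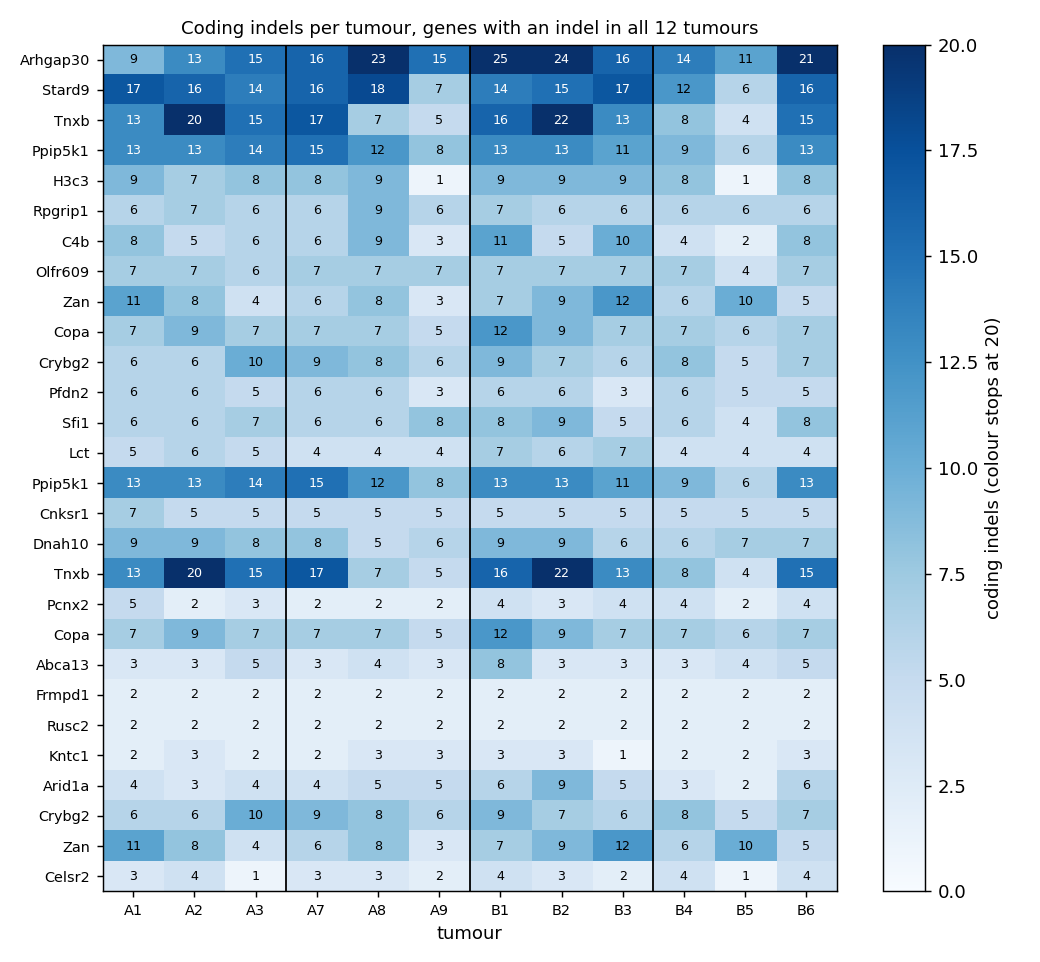
Coding indels (frameshift plus in-frame) of each tumour in genes with the highest mean frameshift or in-frame counts among those hit in all 12 tumours; vertical lines separate soft gels, stiff gels, WT hosts and KO hosts. Frmpd1 and Rusc2 show 2 in every tumour, and H3c3 drops to 1 in A9 and B5.

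Genes hit by indels in all tumours also held many other variants. A missense variant was present in all 12 tumours in 62.4% of them, against 14.1% of genes with an indel in 2 to 11 tumours, 5.25% of those with an indel in 1 tumour and 2.65% of the 15373 genes with none. The median number of intron variants per tumour was 35.9, 14.3, 4.25 and 1.08 in the same order. Gene length was not taken into account in these values. Members of 18 multigene families, such as olfactory receptors and zinc finger genes, made up 12.7% of the genes hit in all 12 tumours and 20.6% of the genes with no indel. Some of the genes lay side by side. Gene order was taken from the RefSeq table of GRCm38.p6. Of the 511 genes found there, 90 (17.6%) had an immediate neighbour on either side that was also hit in all 12 tumours. The class held 2.33% of all ordered genes. That share is per gene, whereas a neighbour could lie on either side, so the shares are not directly comparable. The longest run was Zscan29, Tubgcp4, Trp53bp1, Map1a and Ppip5k1, and Stard9, Cdan1 and Ttbk2 formed another. Nit1, Pfdn2 and Klhdc9 stood together, as did the pairs Tnxb and C4b, Ncstn and Copa, and Tsc2 and Nthl1. Overlapping genes can share a variant, which adds to such runs.

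A frameshift does not reach every protein form of a gene. Over gene and tumour pairs with a frameshift and at least 2 listed coding transcripts, every listed transcript was hit in 44.4%. The share was 45.3% for genes with a frameshift in 1 tumour, 43.0% for 2 to 11 and 46.7% for all 12. Transcripts with no variant of any kind are not listed, so these shares are upper limits.

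A9 and B5 lacked indels that the other tumours shared. Of 119 genes hit in exactly 11 tumours, 42 lacked an indel in B5 only and 31 in A9 only, and each other tumour was the missing one for 0 to 8 genes. Of 82 genes hit in exactly 10 tumours, 26 lacked an indel in just A9 and B5, while the next most frequent pair, A8 and A9, accounted for 5. For missense variants the same pair was missing in 53 of 155 genes. A9 and B5 come from different experiments and groups.

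Trim17, a ubiquitin ligase, had the highest counts, with 9, 9, 4, 9 and 9 indels in A1, A2, A3, A7 and A8, 10, 9, 9, 4 and 4 in B1, B2, B3, B4 and B6, and 0 in A9 and B5. Its missense count was 2 in A9 and in B5 and a median of 2 in the other 10 tumours, so indels were absent there and missense variants were not. Adam4, a testis metalloprotease-like gene, had 5 in each tumour but B1, with 6, and A9 and B5, with 0. Adam4 also had 0 missense variants in A9 and B5 against at least 9 in the others, so indel and missense calls were absent together. Tas2r131, a bitter taste receptor, had 4 indels in 10 tumours and 0 in A9 and B5, beside 17 missense variants in those and at least 19 in the rest. Plekhf1, a lysosomal adaptor, had 3 to 5 indels against 0, and missense counts of 3 and 5 against at least 30. Shf, an adaptor protein, had 3 in each of the 10. Of the 26 genes, 15 had 0 missense variants in both tumours, and in 4 of these all 10 other tumours had at least 1. Several genes stood at 1 indel in each of 10 tumours and 0 in A9 and B5: Yes1, a Src-family kinase, Tax1bp1, an autophagy adaptor, and Camkk1, a calcium-dependent kinase. These 26 genes were chosen by the pattern itself, after their values were seen.

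**Figure D4:**
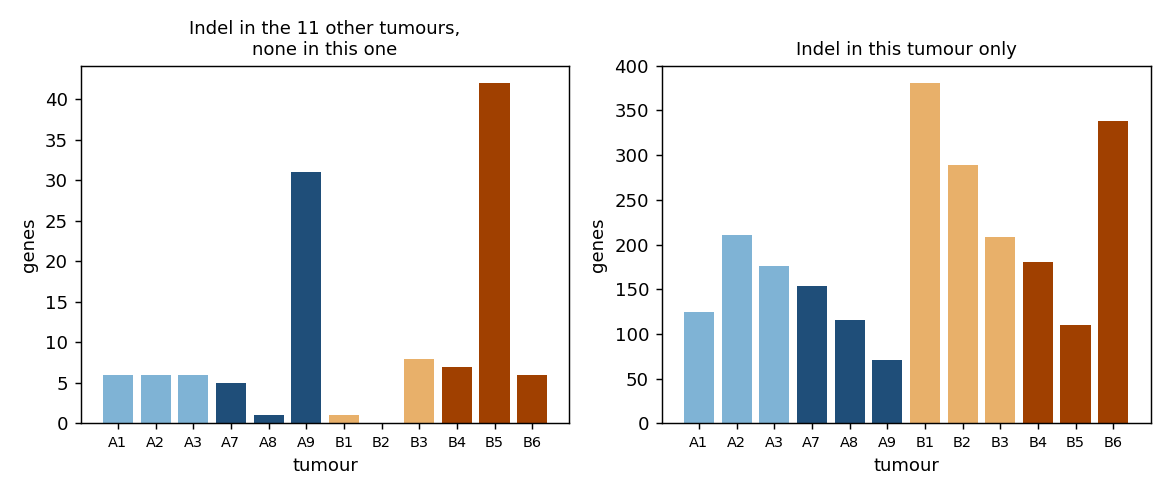
Left, number of genes with an indel in the 11 other tumours and none in the tumour named on the axis. Right, number of genes with an indel in that tumour only. B5 and A9 stand highest on the left (42 and 31 genes) and B1 and B6 on the right (381 and 338 genes); A9 is lowest on the right with 71.

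Genes hit in a single tumour were most numerous in B1, B6 and B2, which also had the most missense variants (11194, 10143 and 9493). They numbered 125, 211 and 176 in soft gels, 154, 116 and 71 in stiff gels, 381, 289 and 208 in WT hosts and 181, 110 and 338 in KO hosts. Of the 2360, 2086 had 1 indel, 212 had 2 and 62 had 3 or more. The highest count was in Tmigd1, a membrane protein of the immunoglobulin superfamily, with 6 in B4 and 0 elsewhere. Adgrl4, an adhesion receptor of endothelium, and Naa20, the catalytic subunit of an N-terminal acetyltransferase, each had 5 in B1, and the vomeronasal receptor Vmn2r103 had 5 in B3. The other 6 genes had 4 in their tumour: Fasl, the death ligand of cytotoxic lymphocytes, in B4; Ccdc66 and Cep295, both centrosomal, in B6; Ankrd26 in B2; C1qbp, a mitochondrial protein, in A7; and Ecpas, a proteasome adaptor, in A9. Several indels at once in a gene that has none in 11 tumours can be 1 event written as several calls, which counts without positions cannot show.

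By group, 2626 of the 5939 genes (44.2%) were hit in 1 group only, 1344 in 2, 743 in 3 and 1226 (20.6%) in all 4. The genes found in 1 group only numbered 550 of 2898 hit in soft gels and 362 of 2422 in stiff gels. They numbered 1028 of 3883 in WT hosts and 686 of 3244 in KO hosts. Few of these were in all 3 tumours of the group: 1 in soft gels, 2 in stiff gels, 20 in WT hosts and 2 in KO hosts. WT hosts also had the most coding indels, a mean of 3567 per tumour. This pattern was not counted for missense variants. The soft-gel gene was Zfp445, a zinc finger repressor of imprinted loci, and the stiff-gel genes were Fam126b and Scaf11, a splicing-associated factor. In KO hosts they were Slc28a1, a nucleoside transporter with 1, 1 and 3 indels, and Stt3b, the catalytic subunit of an oligosaccharyltransferase with 1, 1 and 2. Among the 20 of WT hosts, Dop1b had 4, 1 and 2, Htr3a, a serotonin-gated channel, had 2, 2 and 1, and Gsr, glutathione reductase, and Cxcr4, a chemokine receptor, had 1 in each. The reverse pattern, absence from 1 group and presence in the 9 other tumours, held for Calhm2 and Itgal in KO hosts, Foxe1 in WT hosts and Alpk2 in stiff gels. Itgal, the alpha chain of the leukocyte integrin LFA-1, had 1 indel in each of the 9 and 0 in B4, B5 and B6. Zfp445, Fam126b, Scaf11, Htr3a, Cxcr4 and Calhm2 were picked out by these patterns after their values were seen. Outside the genes hit in all 12 tumours, 2 tumours of a group shared a median of 23.6% of the genes hit in either, tumours of the other group of the same experiment 24.4%, and tumours of different experiments 22.4%. The ranges over pairs overlapped, from 14.1% to 29.7% within a group and from 12.5% to 25.7% between experiments. The pair that shared least was A9 and B5, with 12.5%.

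Stiff-gel tumours carried fewer coding indels on average than soft-gel tumours, with overlap between the groups. Stiff gels averaged 2229 ± 531 (SD, n = 3) and soft gels 2586 ± 253 (SD, n = 3), a difference of -13.8% (two-sided exact permutation p = 0.5, adjusted 0.652 over 30 tests). Frameshifts averaged 1825 ± 442 against 2096 ± 215 (exact permutation p = 0.5). In-frame indels averaged 404 ± 88.9 against 490 ± 40.0 (exact permutation p = 0.2), and the in-frame share 18.2% ± 0.567 against 19.0% ± 0.526 (exact permutation p = 0.2). With 3 tumours against 3 the smallest possible p is 0.1. Labels say only that the tumours are separate samples, so p-values measure the spread between them. The lowest stiff value is A9's, and without A9 the difference in coding indels was -53.8. It was -480 without A1, -227 without A2, -365 without A3, -544 without A7 and -475 without A8.

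No gene passed edgeR's quasi-likelihood test between stiff and soft gels. On simulated counts in this comparison the test recovered 18% of 4-fold and 66% of 8-fold changes, placed only in genes of higher mean count. A result of 0 genes therefore does not show that no gene differs. Of 3745 genes with an indel in a gel tumour, 1495 had a sum of at least 3 and were tested, and 0 (0%) had a Benjamini-Hochberg adjusted p under 0.05. Without adjustment, 26 genes had p under 0.05 (12 with more and 14 with fewer indels in stiff gels), and DESeq2 called 0, with 0 unadjusted. With each tumour's total of coding indels as library size, chosen after seeing the data, edgeR again called 0 and the unadjusted split turned to 21 with more and 17 with fewer. Presence in 3 of 3 tumours of a group with 0 of 3 in the other was seen for 12 genes in stiff gels (0.32% of 3745) and 15 in soft gels (0.401%). For missense variants the shares were 0.280% and 0.479% of 7512 genes. Leaving out a tumour eases the criterion for its own group, from 3 of 3 to 2 of 2. Without A7, A8 or A9 there were 29, 31 and 61 genes in stiff and 31, 36 and 17 in soft gels, so stiff gels had more only without A9. Without A1, A2 or A3 there were 19, 19 and 20 in stiff and 86, 53 and 75 in soft gels.

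In stiff gels the named genes of this kind carried 1 to 3 indels per tumour. Slc7a7, a transporter of cationic amino acids, had 1, 3 and 2 in the stiff and 0 in the soft gels, and it also had 1 in each KO-host tumour and 0 in each WT-host tumour. Cit, the citron kinase of cytokinesis, had 2, 1 and 1, Ptpn22, a phosphatase of lymphocytes, 1, 1 and 2, and Fam72a, which lowers the uracil-DNA glycosylase UNG, 1, 2 and 1. Cit and Ptpn22 were also hit in the WT-host tumours B1 and B2. Dock10, Nrap, Cplane1 and the olfactory receptor Olfr1053 completed the 8 with the largest mean difference. In soft gels Alpk2, an alpha-type kinase, had 2, 1 and 5 in A1, A2 and A3 and 0 in stiff gels. Usf3 had 2, 4 and 1, Map4k1, a kinase of blood cells, 2, 2 and 1, and Cacna1a, a neuronal calcium channel, 1, 2 and 1. Notch3, a Notch receptor, had 2, 1 and 1 frameshifts, and Dlat, a subunit of pyruvate dehydrogenase, had 1, 1 and 2 indels, all in frame. Gabpb2 and the predicted gene Gm10717 were the others. Each of the 8 soft-gel genes also had indels in 2 to 6 host tumours.

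KO-host tumours carried fewer coding indels on average than WT-host tumours, and they were widely spread. KO hosts averaged 2655 ± 968 (SD, n = 3) and WT hosts 3567 ± 582 (SD, n = 3), a difference of -25.6% (exact permutation p = 0.3, adjusted 0.563). Frameshifts averaged 2144 ± 757 against 2887 ± 483, and in-frame indels 512 ± 211 against 680 ± 101 (exact permutation p = 0.3 for both). The in-frame share was 19.0% ± 0.995 against 19.1% ± 0.641 (exact permutation p = 1). B5 was the lowest and B6 lay above B2, so the order of tumours did not follow the groups. Without B5 the difference in coding indels was -428.5, without B1 -608 and without B6 -1396, against -912 over all 6.

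edgeR tested 2022 of the 4915 genes with an indel in a host tumour and called 0 (0%) at an adjusted p under 0.05. On simulated counts in this comparison it recovered 27% of 4-fold and 82% of 8-fold changes, placed only in genes of higher mean count. Without adjustment, 86 genes had p under 0.05 (9 with more and 77 with fewer indels in KO hosts), and DESeq2 called 0, with 7 unadjusted. With total coding indels as library size, edgeR again called 0 and the unadjusted split was 21 higher and 49 lower. Genes with indels in every WT-host and no KO-host tumour numbered 71 (1.44% of 4915), and the reverse held for 7 (0.142%). Missense variants gave 0.974% and 0.208% of 7697 genes. Without B5, the tumour with the fewest indels of its experiment, there were 78 in WT and 91 in KO hosts, where presence in 2 of 2 KO-host tumours was enough. Without B4 or B6, under the same easier criterion, there were 105 and 127 in WT hosts against 34 and 17 in KO hosts. Without B1, B2 or B3 the counts were 118, 167 and 204 in WT against 12, 13 and 11 in KO hosts. WT hosts thus had more such genes in each of these settings except without B5.

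Genes of the WT-host side had up to 6 indels. Dnah12, an axonemal dynein, had 6, 3 and 2 in B1, B2 and B3, 1 in A2 and 0 in all other tumours. Dhx16, a splicing helicase, had 3, 4 and 2, and Rasal2, a Ras GTPase-activating protein, 2, 2 and 3. Helz, an RNA helicase, had 1, 4 and 1 in WT hosts and also 4 and 4 in the soft-gel tumours A1 and A2. Gpr176, an orphan receptor of the brain clock, had 1, 3 and 3, and the taste receptor Tas2r106 had 4, 5 and 1. The KO-host side comprised Slc28a1, Stt3b and Slc7a7, described above, and 4 further genes. Foxe1, a thyroid transcription factor with an alanine tract, had in-frame indels only, 2, 1 and 1 in KO hosts, 0 in WT hosts and 1 in each of the 6 gel tumours. Clasp2, a microtubule-binding protein, had 1, 2 and 1, and Tanc2, a synaptic scaffold, had 1 in each. Sprtn, the protease that clears DNA-protein crosslinks, had 1 frameshift in each KO-host tumour and in A3.

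**Figure D5:**
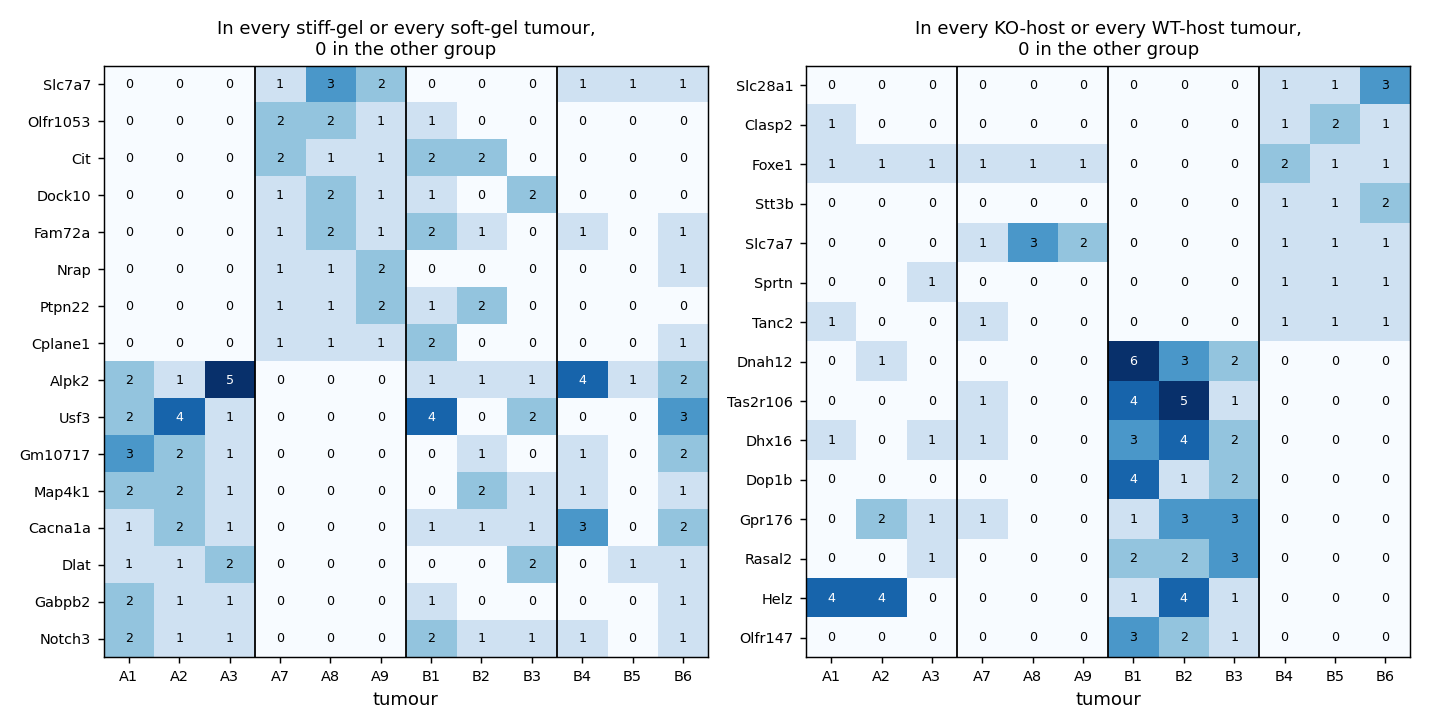
Coding indels per tumour in the genes with the largest mean difference among those present in all 3 tumours of a group and absent from the other, for stiff and soft gels (left) and KO and WT hosts (right); the number in each cell is the count and darker cells hold more. Most counts are 1 to 3, and many of the genes also carry indels in the experiment that did not select them.

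Gel tumours carried fewer coding indels than host tumours, with overlap. Gel tumours averaged 2408 ± 420 (SD, n = 6) and host tumours 3111 ± 871 (SD, n = 6), a difference of -704 (exact permutation p = 0.102 over 924 assignments, adjusted 0.530). Frameshifts differed by -555 (exact permutation p = 0.106) and in-frame indels by -149 (exact permutation p = 0.0952). Genes hit in a single tumour averaged 142 ± 49.1 per gel and 251 ± 103 per host tumour (exact permutation p = 0.0498, adjusted 0.530), and made up 8.99% ± 1.95 against 12.3% ± 2.38 of a tumour's indel genes (exact permutation p = 0.0325, adjusted 0.530). Without B5, the lowest host tumour, the difference in coding indels was -988 (exact permutation p = 0.00433, not adjusted). Leaving out any other single tumour gave an exact permutation p of 0.0909 (without B4) or more. The difference was -546 without A9 (exact permutation p = 0.201) and -491 without B1 (exact permutation p = 0.199). Per 100 missense variants, frameshifts averaged 27.8 ± 4.02 in gel and 28.1 ± 2.64 in host tumours (exact permutation p = 0.833). Gel, host genotype and possibly sequencing run changed together from one experiment to the other, so they cannot be told apart.

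edgeR tested 2780 of the 5939 genes and called 0 (0%) between gel and host tumours, while 116 genes had p under 0.05 without adjustment (17 with more and 99 with fewer indels in gels). Scaled to total coding indels, that split was 90 higher and 144 lower, again with 0 called. No gene (0% of 5939) had an indel in all 6 gel tumours and none in host tumours, and 1 gene (0.0168%) had the reverse. It was Ercc6l2, a helicase-like DNA repair protein, with 1, 1 and 1 in WT hosts, 1, 1 and 2 in KO hosts and 0 in gels (edgeR adjusted p = 0.537). The in-frame and frameshift means of Ercc6l2 were 0.167 and 0.417. DESeq2 called 1 gene, Stk11ip, which encodes a partner of the kinase LKB1, with 16 genes at an unadjusted p under 0.05. Stk11ip had 2, 0 and 6 indels in soft gels, 6, 6 and 6 in stiff gels and 0 in all host tumours (DESeq2 log2 fold change 4.56, SE 1.03, adjusted p = 0.0256), while edgeR gave an adjusted p of 0.537. It was present in 5 of 6 gel tumours at up to 6 indels each, with the same 6 in 4 tumours.

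Among DNA repair genes, 11 of 18 mismatch repair and replicative polymerase genes (61.1%) carried a coding indel in some tumour, 2 of them in all 12. Over all listed protein-coding genes the share was 27.9%, with 519 of 21312 hit in all 12. Gene length was not taken into account in this share or in those of the lists that follow. Msh6, which recognises mismatches and small loops, had 4, 4 and 3 in soft gels, 5, 4 and 3 in stiff gels, 4, 5 and 3 in WT hosts and 3, 3 and 4 in KO hosts, with at least 3 frameshifts in each tumour. Pold1, the lagging-strand polymerase, had 1 to 3 frameshifts in each tumour, and Pole, the leading-strand polymerase, had indels in all but B4. Pold3, a subunit of the same lagging-strand enzyme, was hit in 8 tumours, always at 1 or 2. The sum over the list was lowest in A9 (5) and highest in A2 (14), and averaged 9.67, 8.33, 9 and 8 in soft gels, stiff gels, WT and KO hosts. Of 23 listed genes whose coding repeats often shift in mismatch-repair-deficient cancers, 10 were hit (43.5%, against 27.9% of all genes) and 0 in all tumours. Whether the mouse genes hold these repeats, and whether the indels lie in them, was not tested. Epha2, an ephrin receptor, and Ptch1, the Hedgehog receptor, were hit in 9 tumours each, Sec31a in 5 and Igf2r in 4. Their sum was 1 to 10 per tumour, and averaged 7 ± 2.65 in WT hosts and 2.67 ± 1.53 in KO hosts, with no overlap. Over all genes the KO-host mean of coding indels was 25.6% below the WT-host mean, with overlap.

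Of 44 double-strand break repair and checkpoint genes, 20 were hit (45.5%, against 27.9% of all genes). Rnf168, a ubiquitin ligase at breaks, had exactly 1 frameshift in each tumour, and Trp53bp1, which steers breaks to end joining, had 1 to 3 indels. Prkdc, the kinase of end joining, was hit in all but B6, Fancd2 in 8 tumours, and Brip1 and Topbp1 in 6. Brca1, Brca2 and Atm were each hit in 1 tumour (A3, B6 and A7) with 1 frameshift. Of 35 excision repair and translesion genes, 15 were hit (42.9%). Nthl1, a glycosylase for oxidised pyrimidines, had 1 in-frame indel in every tumour, and Polb, which fills the gap in base excision repair, had 1 to 3 frameshifts in each. Ddb1, a sensor of UV damage, was hit in 7 tumours. Tdg, a thymine glycosylase, had 6 in A3, 5 in A8, B3 and B6, 1 in B4 and 0 in the other 7 tumours, a pattern that crossed all 4 groups.

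Of 70 mammary tumour driver genes listed, 33 were hit (47.1%, against 27.9% of all genes), 4 of them in every tumour. Gene length was again not taken into account, and the list was chosen with earlier results of these data known. Arid1a had 4, 3 and 4 in soft gels, 4, 5 and 5 in stiff gels, 6, 9 and 5 in WT hosts and 3, 2 and 6 in KO hosts. Notch4 had 5, 6, 5, 3, 5, 5, 5, 4, 5, 2, 1 and 5 from A1 to B6, Tsc2, which restrains mTOR, 1 to 6, and Braf, a kinase of the MAPK pathway, 1 to 4, all frameshifts. Braf had 0 missense variants in any tumour. Ncor1, a corepressor, was hit in 11 tumours. Ccne1, cyclin E1, was hit in 9, with 6 in B3 and 0 in A9, B5 and B6, and Apc, the Wnt pathway suppressor, also in 9. Notch3 and the histone methylase Setd2 were hit in 8 and 6. The list's sum averaged 24.7 ± 2.08 in soft gels, 22.3 ± 6.43 in stiff gels, 38.0 ± 1.73 in WT hosts and 21.3 ± 11.1 in KO hosts. WT and KO hosts did not overlap, beside a difference of -25.6%, with overlap, in all coding indels. Proteasome subunits were the third list without overlap there, at 6.67 ± 1.53 in WT and 2.67 ± 0.577 in KO hosts. Groups thus did not overlap for 3 of 11 lists between KO and WT hosts. Between stiff and soft gels, and between gel and host tumours, this held for 0 of 11. The list sums were neither tested nor scaled to a tumour's total. In that list Psmb9, a subunit of the immunoproteasome, had 1 in-frame indel in every tumour, Psmd1 was hit in 9, Psmb11, the subunit of the thymus, in 5, all of them host tumours, and Psmb8 in 2.

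The lists nearest to the study's treatments covered lipid peroxidation and the matrix. Of 41 ferroptosis and antioxidant genes, 10 were hit (24.4%, close to the 27.9% of all genes) and 0 in all tumours. Fth1, the ferritin heavy chain, had 1 in-frame indel in A1, A7, A8, B1, B4 and B6; its processed copies in the genome make short reads there uncertain. Txnrd2, a mitochondrial thioredoxin reductase, was hit in 5 tumours, Gsr in the 3 WT-host tumours, and Gss, glutathione synthetase, in B4 and B6. The list's sum was 0 to 7 per tumour. Of 44 collagen chains, 25 were hit (56.8%, against 27.9% of all genes), Col6a6 and Col17a1 in all tumours with 1 to 5 and 1 or 2 indels. Col14a1 was hit in 11, Col6a5 in 10, Col9a1 in 9 and Col6a4 in 6. Of 53 integrin and mechanosignalling genes, 31 were hit (58.5%, against the same 27.9%). Itgb3, the platelet and osteoclast integrin beta chain, had 1 frameshift in each tumour and Itgav, its alpha partner, 1 to 4 indels. Itga9 was hit in all but A9, Itgal in 9, Piezo1, a stretch-gated channel, in 8 and Itga10 in 6. Over 11 such lists the mean sum was lower in stiff than in soft gels for 9, lower in KO than in WT hosts for 9 and lower in gel than in host tumours for 10. The total over all genes was lower in each of these comparisons too. The median member was hit in 1.5 tumours for mismatch repair and polymerase genes, in 1 for collagens and for integrin genes, and in 0 for the other 8 lists, as for all genes.

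Genes listed for proteins with long tracts of 1 amino acid were examined because such tracts are repeats in the DNA as well. Whether the mouse proteins hold these tracts, and whether the indels fall in them, was not tested. Of 46, 20 were hit (43.5%, against 27.9% of all genes). Atxn3, which encodes ataxin 3, had exactly 1 frameshift in each tumour, and Ncoa6, a coactivator, had 1 to 6 indels. Mn1 had 1 in-frame indel in every tumour but A9. Foxe1 and Cacna1a have been described. Cytosolic ribosomal proteins stood at the other end, with 8 of 84 hit (9.52%) and 0 in all tumours. Rpl3l, a muscle-specific relative of Rpl3, was hit in 6, Rpl6 and Rplp1 in 2 and Rpl3 in 1; these genes have many processed copies, so their calls are uncertain.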

How the data were processed

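Exome DNA of 12 tumours was analysed, 3 in each of 4 groups. Per the labels' protocols, a SureSelectXT mouse exon kit was used for capture, NovaSeq instruments read 150 bp pairs, and 6 Gb per sample (over 50x) is stated. Reads were processed on build GRCm39 with BWA 2.2.1, with SAMtools 1.19.2 and with GATK, per the submitters' processing notes. Caller settings, filters and whether tails served as normals were not given in the sources used here. For each tumour the authors deposited whole-number counts of variants per transcript and effect, written by snpEff per the file headers. They hold no depth, so counts have no depth interval.

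Per gene, the 5 indel columns were each taken at their maximum over protein-coding transcripts and summed. Rows of blank biotype (8962 to 11049 per tumour) were left out. A count per gene can add calls from different transcripts. Group means were compared with exact permutation tests over tumours (two-sided), adjusted over 30 tests by Benjamini-Hochberg. Genes with a sum of at least 3 were tested with edgeR 4.0.16 (quasi-likelihood, equal library sizes, Benjamini-Hochberg, threshold 0.05) in R 4.3.3, and with DESeq2 1.42.0 as an alternative. The edgeR common dispersion lay at its floor of 9.77e-05, and many genes had no spread within groups. The SE beside an edgeR fold change is approximate, the size of the log2 fold change divided by the root of F. The scripts were tested on simulated data, with known changes placed only in genes of higher mean count. The simulated counts were drawn close to the floor dispersion, so recovery in the real counts may be lower. For gel minus host, edgeR recovered 80% of 4-fold and 100% of 8-fold changes, with 5 false calls. Python 3.11.15 with pandas 2.3.3 and SciPy 1.17.1 was used. Gene order came from RefSeq GRCm38.p6, which matched 97.3% of symbols.

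Named genes are up to 10 per direction past the edgeR threshold (none passed), in each direction the 8 all-or-none genes of largest mean difference, the 15 highest mean frameshift and in-frame genes hit in all tumours, the 10 highest counts in a single-tumour gene, and list members hit in at least 6 tumours (otherwise the 4 hit in most). Other genes named (among them Brca1, Brca2, Atm and Stk11ip) were chosen after their values were seen. The members, 11 lists and 18 families were chosen with earlier results of these data known. Ccnd1, Slc22a9 and Claspn of the lists were not listed in any tumour. Some items are not reported here. Alternatives changed transcripts, biotypes, families, scaling, tool, filter and tumours.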

Additional observations from a re-analysis of the deposited data

Results flagged for a closer look

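Among 20 sets of 6 gel or 6 host tumours, 5 held a tumour set far apart from the others by Dixon's criterion, where chance gives about 1 in 20. The sets reuse the same tumours and related measures, so they are not independent and that rate is only a guide. A9 had 19.9 frameshift variants and 4.59 in-frame indels per 100 missense variants among the gel tumours. B5 had 23.1 and 5.17 among the host tumours. B1 had the highest deletion share of in-frame indels among the host tumours, 57.8%. The causes were not tested. In 10 tests of whether the stiff-minus-soft and the KO-minus-WT difference differ, 0 passed (smallest exact permutation p = 0.395).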

How the results depend on the processing

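Counts without depth, position or allele fraction limit every value here, and with 3 tumours a group the exact permutation tests of burden within an experiment could not go below p = 0.1. Of the settings other than leaving out 1 tumour, 109 values were classed as the same as the main value and 17 were not. Gene counts were classed by whether they stayed within a set fold range. Most of the 17 were gene counts that moved beyond it. The others were burden differences that became stronger, a share difference that reversed and the DESeq2 call. Without A9 and B5 together, gel minus host was -831 coding indels, -653 frameshifts and -178 in-frame indels (exact permutation p = 0.0159, 0.0159 and 0.0238, not adjusted), and the in-frame share difference between KO and WT hosts turned to 0.300. That exclusion gave 78, 169 and 7 all-or-none genes for stiff and soft gels, KO and WT hosts, and gel and host, against 27, 78 and 1, with a criterion that is easier to meet; it was chosen after seeing the data for these counts. With at least 2 indels required they were 0, 3 and 0, and the recurrence classes 933, 977 and 132. In-frame indels alone gave 1115, 884 and 96. Leaving out each tumour in turn gave -988 to -491 coding indels, -782 to -381 frameshifts and -206 to -110 in-frame indels for gel minus host. The exact permutation p was under 0.05 only without B5 (0.00433, 0.00649 and 0.00649). The share difference between KO and WT hosts ranged from -0.638 to 0.300, and all-or-none genes from 60 to 105, 130 to 215 and 1 to 5. DESeq2 called 1 gene between gel and host, and edgeR 0 in every setting run. TMM scaling cancelled the library sizes in the gel and the gel-against-host fits and nearly so in the host fit, so it tested nothing further. Total coding indels as library size, added after seeing the data, moved the median log2 fold change from -0.37 to 0.01 for KO minus WT, from -0.33 to 0.01 for gel minus host and from 0 to 0.19 for stiff minus soft. With missense counts as library size, added likewise, 0 genes were called. The causes were not tested. No paired analysis was possible because the tumours of different groups share no replicate numbers.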

Other observations

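Members of the 18 multigene families made up 20.6% of genes with no indel and 15.5% of those with an indel in 1 tumour. They made up 13.6% of genes hit in 2 to 11 tumours and 12.7% of genes hit in all 12. Without family members, 1995 genes had an indel in 1 tumour, 2645 in 2 to 11 and 453 in all 12. Stiff minus soft gels was then -325 coding indels (exact permutation p = 0.5). KO minus WT hosts was -806 (exact permutation p = 0.3). Values of single families are not given, because their tallies conflicted with the counts of single genes. The taste receptors Tas2r131 and Tas2r106 carried 4 indels each in B1, where the tally of all taste receptors was 6. Short reads of near-identical family members are uncertain, and the part this plays was not tested.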
